A study of Mus musculus with 2 samples.

Results

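Hematopoietic stem cells (HSC) are a small population of the bone marrow from which blood cells of every lineage derive. In mouse HSC, enzymes that write and remove DNA methylation were examined with Polycomb proteins that write repressive histone marks or help remove them. They comprised 10 genes: the DNA methyltransferases Dnmt1, Dnmt3a and Dnmt3b, the methylcytosine dioxygenases Tet1, Tet2 and Tet3, the Polycomb methyltransferases Ezh1 and Ezh2, and the Polycomb proteins Bmi1 and Asxl1. Each gene was represented by every probe set that the platform annotation names for that gene alone, matched by symbol or synonym. This gave 27 of the 45037 probe sets in the table, and 10 of the 18193 genes named by a probe set of their own. The study comprised 1 Affymetrix array of HSC labelled Sirt6 knockout and 1 array of wild-type HSC, both from mice aged 3 months. Sirt6 is a nuclear NAD-dependent deacylase of histones. The labels describe no other allele or treatment, and the sources used here do not give how the Sirt6 allele was disrupted, how the HSC were sorted or how many mice were pooled. With 1 array per genotype no test, SD or p-value was possible, and every difference below compares 2 RNA samples.

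DNA methylation marks cytosines that stand before guanines. Dnmt1 copies the marks onto the daughter strand after replication, Dnmt3a and Dnmt3b place new ones, and the Tet enzymes oxidise them as a step toward removal. Polycomb repressive complex 2 (PRC2), with Ezh2 or Ezh1 as its catalytic subunit, methylates histone H3 at the lysine named H3K27. Polycomb repressive complex 1 (PRC1), which includes Bmi1, ubiquitinates histone H2A, and Asxl1 is a partner of the deubiquitinase Bap1, which removes that mark. In blood formation Dnmt3a, Tet2 and Asxl1 are known as genes that are often mutated in clonal expansions of stem cells, and Bmi1 and Ezh1 are known to be needed for the maintenance of adult HSC in mice.

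None of the 10 genes differed by 1.5-fold or more between the arrays. Values are MAS5 signals in linear units, and log2 ratios are the knockout array over the wild-type array. A gene was represented by its brightest probe set, and a signal under 60.5 (the median of all probe sets) was treated as under the floor, where signals are mostly noise. Among the 11547 genes above that floor on at least 1 array, 502 (4.35%) were at least 1.5-fold different, of which 198 (1.71%) had more signal and 304 (2.63%) less on the knockout array. With 10 genes, a count of 0 lies near that background. All 10 genes were above the floor on both arrays. Their log2 ratios ran from -0.16 to 0.29, with 3 above 0 and 7 below 0. The median was -0.05, against 0.0023 for all measured genes. The median size of the ratio, regardless of sign, was 0.08 for the 10 genes and 0.13 for all measured genes. This comparison is not matched for brightness. Over all measured genes the median size was 0.19 at a mean log2 signal of 6 to 8. It was 0.08 at 10 or more, where 4 of the 10 genes lie.

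**Figure D1:**
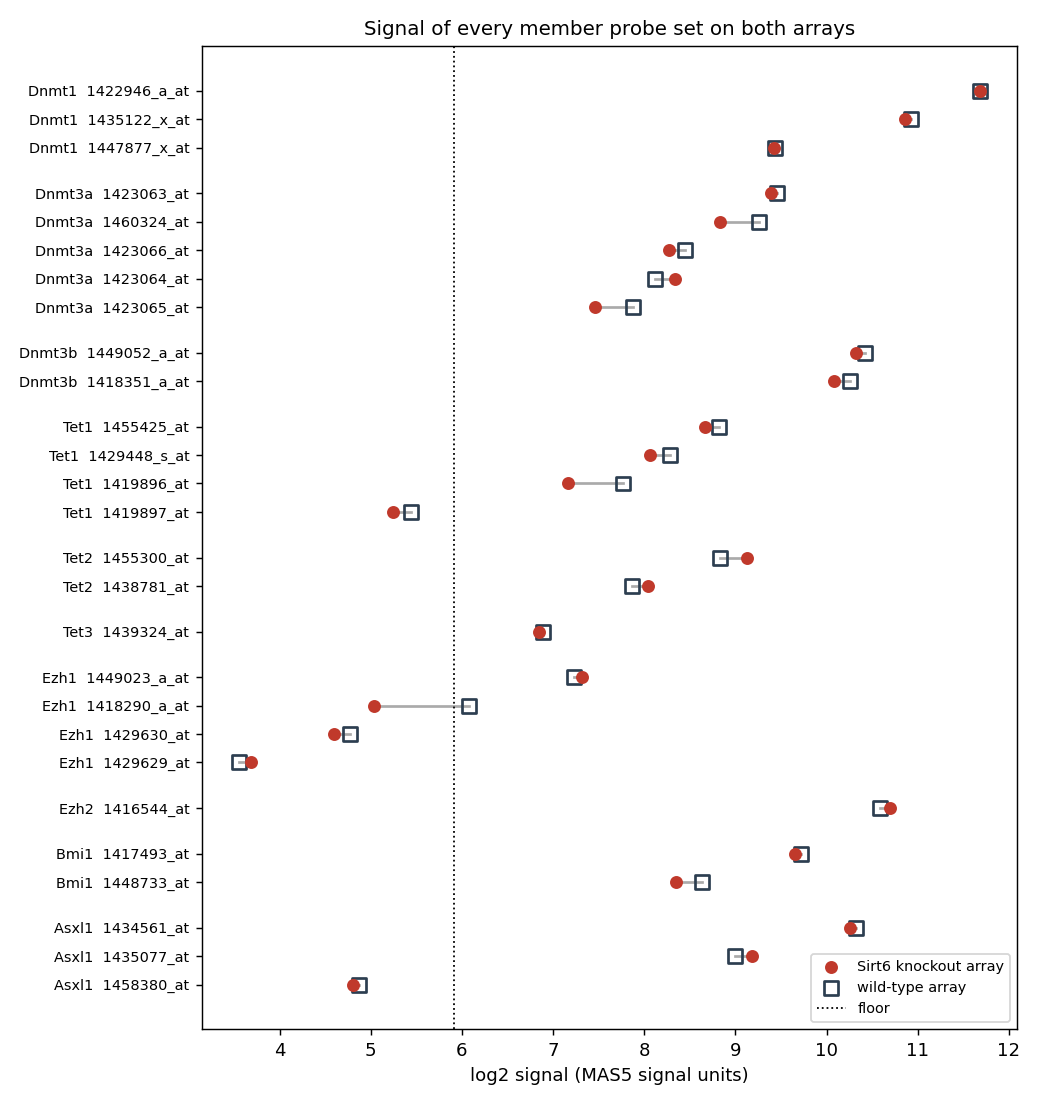
Log2 MAS5 signal (horizontal axis) of each of the 27 probe sets of the 10 genes (rows, brightest first within a gene) on the Sirt6 knockout array (filled circles) and the wild-type array (open squares), with the floor as a dotted line. The circle and square nearly coincide in most rows; the widest gaps above the floor are in Tet1 (1419896_at, log2 ratio -0.60) and in Dnmt3a (1460324_at and 1423065_at, both -0.43).

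The scatter between probe sets of the same gene gives a scale for these ratios, although it holds no error between animals or RNA samples. In the 4632 genes with 2 or more probe sets that exceeded the floor on each array, probe sets of 1 gene scattered with an SD of 0.22 in their log2 ratio. This SD is pooled over probe sets of every brightness above the floor. It is not matched to bright genes, whose ratios were smaller in size. Of the brightest probe sets of the 10 genes, only that of Tet2 lay farther than this SD from 0. Of the 27 probe sets, 22 exceeded the floor on both arrays, 1 on the wild-type array only and 4 on neither. Among the 22, 16 had a ratio below 0 and 6 a ratio above 0, with a median of -0.06, against -0.0091 for all such probe sets on the array. One of the 22 (Tet1, 1419896_at) passed 1.5-fold, on the lower side; of the 21544 probe sets on the array that met the same condition, 805 (3.74%) did so on that side, 342 (1.59%) on the higher side and 1147 (5.32%) on either.

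The maintenance methyltransferase gene Dnmt1 had the ratio closest to 0 of the 10 genes. Its probe set 1422946_a_at read 3279 on the knockout array against 3298 in wild type (log2 -0.0086). Its other probe sets read 1855 against 1940 (1435122_x_at, log2 -0.06) and 685 against 692 (1447877_x_at, -0.01). The 3 probe sets thus lay within 0.06 of each other on the log2 scale. Probe sets ending in _x_at can match related transcripts, and the platform annotation gives no source record for either of these.

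The de novo methyltransferase genes had ratios below 0 on 6 of their 7 probe sets. Dnmt3a read 672 on the knockout array and 702 on the wild-type array on its brightest probe set (1423063_at, log2 -0.06). Its further probe sets read 457 against 614 (1460324_at, -0.43), 310 against 349 (1423066_at, -0.17), 324 against 279 (1423064_at, 0.22) and 175 against 236 (1423065_at, -0.43). All 5 share 1 source record in the annotation, and still they spread over 0.64 on the log2 scale, the widest range of the 7 genes here that had more than 1 probe set above the floor. Among probe sets within 0.5 log2 units of its brightness, 1460324_at lay at percentile 4.60 and 1423064_at at percentile 86.8. The direction of Dnmt3a therefore depended on the probe set. Dnmt3b, the other de novo enzyme, read 1279 against 1374 (1449052_a_at, -0.10) and 1084 against 1226 (1418351_a_at, -0.18). Over all 3 methyltransferase genes, 9 of 10 probe sets were below 0, with a median of -0.08. The median given above for the whole array, -0.0091, was also below 0. The 10 probe sets are not independent, since they stand for 3 genes and the 5 of Dnmt3a share 1 source record. The count includes Dnmt1 ratios as small as -0.0086 and -0.01. It was the same under quantile normalization, median centring and loess, which rescale the same 2 arrays and add no replicate.

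The dioxygenase genes had ratios on both sides of 0, and of their brightest probe sets only that of Tet2 lay beyond the SD of 0.22 given above. Tet2 had the largest ratio of the 10 genes by its brightest probe set. It read 558 on the knockout array and 456 on the wild-type array (1455300_at), which is 1.22-fold higher (log2 0.29). The second Tet2 probe set read 264 against 233 (1438781_at, 0.18). Both pointed the same way, at percentiles 93.6 and 82.1 of probe sets of similar brightness. Of all measured genes, 81.0% had a ratio no larger in size than that of Tet2.

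Tet1 pointed the other way on each of its probe sets above the floor. It read 405 on the knockout array and 454 on the wild-type array on the brightest (1455425_at, log2 -0.16). The second read 268 against 313 (1429448_s_at, -0.22). The dimmest above the floor read 143 against 217 (1419896_at, -0.60), which is 1.52-fold lower. That probe set lay at percentile 5.55 of probe sets of similar brightness, of which 7.88% passed 1.5-fold. Another, 1419897_at, which shares its source record with 1419896_at, was under the floor on both arrays (37.8 and 43.5). Tet3 had 1 probe set, which read 115 on the knockout array and 119 on the wild-type array (1439324_at, -0.04), and its sign turned under quantile normalization (0.02).

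The promoter windows of Tet2 and Tet1 are shown because these genes had the largest ratios of the 10, in opposite directions, and because the letters that the encoded enzymes act on can be seen in them. Each window runs from 250 bases before to 50 bases after an annotated start, 5′ to 3′ on the gene's strand (RefSeq, GRCm38.p6). Each CG dinucleotide, the site of DNA methylation, is in capitals. The Tet2 window is chr3:133544341-133544640 and the Tet1 window is chr10:62887275-62887574, both on the minus strand.
Tet2: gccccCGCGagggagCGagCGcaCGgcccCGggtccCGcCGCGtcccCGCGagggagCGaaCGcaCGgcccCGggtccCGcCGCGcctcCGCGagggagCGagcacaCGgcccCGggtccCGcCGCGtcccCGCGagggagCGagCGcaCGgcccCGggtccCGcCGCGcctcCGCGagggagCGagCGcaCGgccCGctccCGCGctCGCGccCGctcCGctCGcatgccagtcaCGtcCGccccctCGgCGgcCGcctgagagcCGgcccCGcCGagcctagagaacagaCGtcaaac
Tet1: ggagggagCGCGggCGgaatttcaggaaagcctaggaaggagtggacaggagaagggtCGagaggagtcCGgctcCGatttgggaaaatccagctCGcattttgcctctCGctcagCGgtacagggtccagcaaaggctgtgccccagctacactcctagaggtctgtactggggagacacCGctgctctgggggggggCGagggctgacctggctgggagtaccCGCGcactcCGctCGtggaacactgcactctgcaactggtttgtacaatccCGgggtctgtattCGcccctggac
The Tet2 window holds 57 CG dinucleotides and is 81.3% G or C, and the Tet1 window holds 17 and is 61.7% G or C. Methylation itself was not measured.

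Most promoter windows of these genes held more CG dinucleotides than the typical window. The RefSeq set held 14 windows for the 10 genes, with 3 each for Dnmt1 and Dnmt3a. Of the Dnmt3a windows, 2 overlap, and the bases they share are counted in both. The outermost 5′ ends of Tet2, Tet3 and Dnmt3a lie outside their windows, so the windows do not cover every annotated start. Their median was 23 CG dinucleotides, against 7 for all 32851 windows, and 11 of the 14 held at least 15, against 34.6% of all windows, a limit chosen after the counts were seen. The count of Tet2 stood at percentile 99.8 of all windows. The exceptions under 15 were Asxl1 (13) and 2 windows of Dnmt1 (12 and 2), while the third Dnmt1 window held 33. Of simple motifs searched on both strands, the GC box GGGCGG was in 10 of the 14 windows (35.7% of all windows hold it), which belong to all of the genes but Ezh1 and Ezh2. The CCAAT box CCAAT was in 4 of the 14, of Dnmt1, Tet3 and Ezh2 (37.4% of all windows), and TATAAA was in none of the 14 (13.6% of all windows). Of 2 forms of the E2F core, TTTCGCGC was in 1 of the 14, of Dnmt1 (0.323% of all windows) and TTTGGCGC in 2, that same window of Dnmt1 and that of Ezh2 (0.514% of all windows). In the 14 windows no matches of different motifs overlapped. The shares of all windows are not matched for base content, and the GC box and both E2F forms themselves contain CG. A match describes letters and is not evidence of binding.

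**Figure D2:**
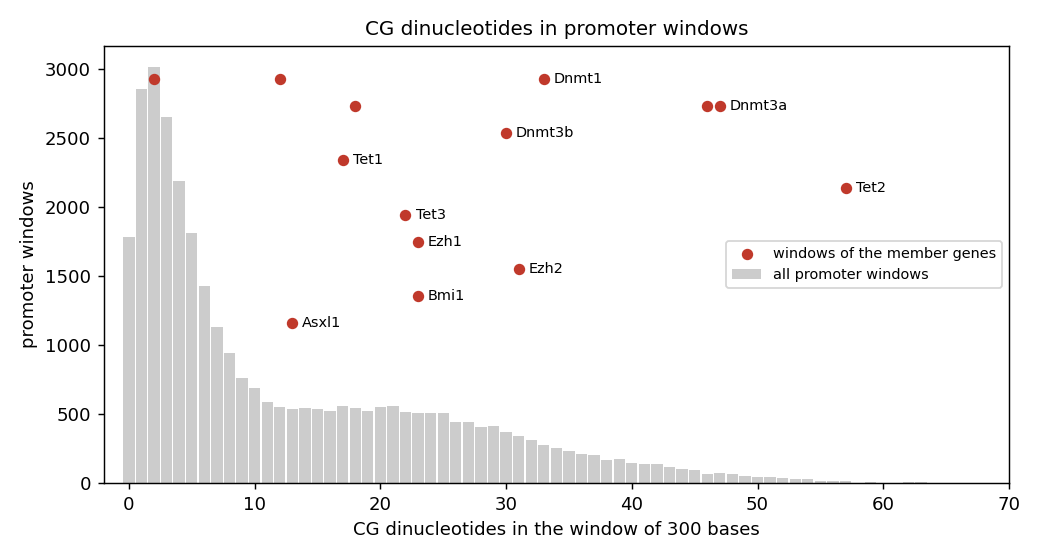
Number of promoter windows (vertical axis) by their count of CG dinucleotides (horizontal axis), for all 32851 RefSeq windows of 300 bases (grey bars). Red points mark the 14 windows of the 10 genes at arbitrary height, 1 row per gene; Tet2 (57) lies farthest right and a Dnmt1 window (2) farthest left.

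The Polycomb methyltransferase genes had small ratios above 0 on their brightest probe sets. Ezh2, the main catalytic subunit of PRC2 in dividing cells, read 1656 on the knockout array and 1540 on the wild-type array on its single probe set (1416544_at, log2 0.11). Ezh1, its paralog, read 160 against 150 (1449023_a_at, 0.09). A second Ezh1 probe set, 1418290_a_at, which shares its source record with the first, read 32.9 on the knockout array, under the floor, and 67.5 on the wild-type array, just above it. Against the floor this is at least 1.12-fold lower. The remaining Ezh1 probe sets were under the floor on both arrays (24.3 against 27.3, and 12.9 against 11.8). The ratio of Ezh1 thus rests on 1 probe set, and the one that shares its source record pointed the other way.

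By their brightest probe sets, Bmi1 and Asxl1 differed little. Bmi1, a core PRC1 subunit, read 807 on the knockout array and 842 on the wild-type array (1417493_at, log2 -0.06), and 327 against 397 on its second probe set (1448733_at, -0.28). Asxl1, the Bap1 partner, read 1225 against 1278 (1434561_at, -0.06) and 579 against 511 (1435077_at, 0.18), so its probe sets pointed in opposite directions. Among probe sets of similar brightness, 1448733_at of Bmi1 lay at percentile 12.9 and 1435077_at of Asxl1 at percentile 85.0. The remaining Asxl1 probe set was under the floor on both arrays (28.1 and 29.3). Over Ezh1, Ezh2, Bmi1 and Asxl1 together, of the 6 probe sets that exceeded the floor on both arrays 3 were below 0 and 3 above 0, with a median of 0.02.

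In 7 genes more than 1 probe set exceeded the floor on both arrays; all probe sets pointed the same way in 5 of these, namely Dnmt1, Dnmt3b, Tet1, Tet2 and Bmi1, and did not in Dnmt3a and Asxl1. On the whole array this held for 2426 of 4632 genes (52.4%). The share of genes past 1.5-fold fell with brightness across the array, and most of the 10 genes are bright. Dnmt1, Dnmt3b, Ezh2 and Asxl1 had a mean log2 signal of 10 or more, where 22 of 1987 genes (1.11%) passed 1.5-fold. Dnmt3a and Bmi1 lay between 9 and 10 (2.53% of genes past 1.5-fold), Tet1 and Tet2 between 8 and 9 (3.80%), and Tet3 and Ezh1 between 6 and 8 (7.36%). Signals of different genes are not compared as levels, since probe sets differ in sensitivity.

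**Figure D3:**
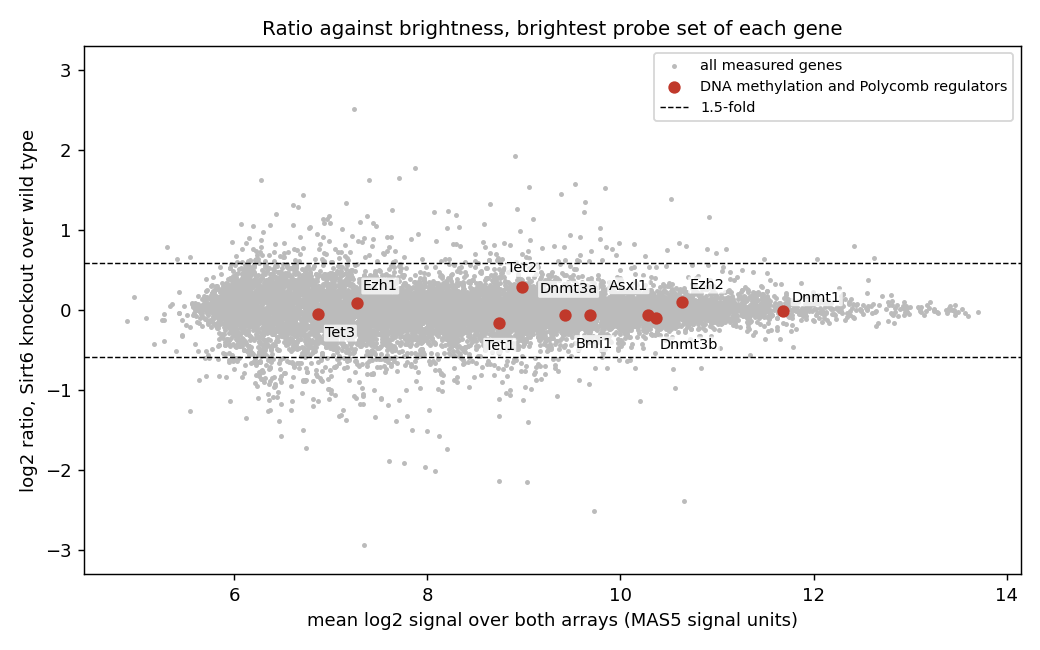
Log2 ratio of the Sirt6 knockout over the wild-type array (vertical axis) against the mean log2 signal over both arrays (horizontal axis) for the brightest probe set of each of 11547 measured genes (grey) and the 10 DNA methylation and Polycomb regulators (red), with dashed lines at 1.5-fold. The 10 genes lie between -0.16 (Tet1) and 0.29 (Tet2), inside the dashed lines.

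The partners of these enzymes likewise held no gene past 1.5-fold by its brightest probe set. Of 87 further genes in 8 lists, 80 had a probe set of their own, and 73 of these were measured. Of the 73, 0 reached 1.5-fold in either direction, against 4.35% of all measured genes on either side. That share is not matched for brightness. It was 7.36% at a mean log2 signal of 6 to 8 and 1.11% at 10 or more. Single probe sets of the lists that did pass 1.5-fold are given under other observations. The median log2 ratio of the 73 genes was -0.0059 and they ran from -0.55 to 0.47. Among partners of DNA methylation, 7 of 10 genes were measured, with a median of 0.03. Hells, a chromatin remodeller needed for DNA methylation, read 865 on the knockout array and 997 on the wild-type array (log2 -0.20). The ubiquitin ligase paralog Uhrf2 read 818 against 721 (0.18), although its second probe set gave -0.11, and Ahcy, which clears the by-product of methyl transfer, read 2389 against 2265 (0.08). Dnmt3l, the cofactor of the de novo enzymes, and Zfp57 were under the floor on both arrays. Among methyl-CpG readers, 7 of 8 were measured, with a median of 0.03. Zbtb38 had the ratio closest to 1.5-fold on the lower side, at 207 against 303 (log2 -0.55, and -0.49 on its second probe set). Mbd1 read 991 against 829 (0.26). Zbtb4 had a ratio of 0.26 by its brightest probe set, but its others ran from -0.95 to -0.44.

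Among partners of demethylation, 8 of 10 were measured, with a median of 0.0095. Idh1, which makes the 2-oxoglutarate that Tet enzymes use, read 512 on the knockout array and 370 on the wild-type array (log2 0.47), and its second probe set read 0.62, past 1.5-fold. Gadd45a read 169 against 139 (0.28), and Cxxc5 read 1297 against 1389 (-0.10). Idh2 read 2004 against 1965 (0.03), and was named after its value was seen.

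No measured subunit of the Polycomb complexes reached 1.5-fold by its brightest probe set. All 9 PRC2 genes were measured, with 2 ratios above 0, 7 below 0 and a median of -0.04. All measured genes had a median of 0.0023 and so split about evenly around 0. Phf1, an accessory subunit that binds methylated histone H3, read 140 on the knockout array and 177 on the wild-type array (log2 -0.33). Eed, a core subunit that binds the mark PRC2 makes, read 972 against 1193 (-0.30). Jarid2, an accessory subunit that helps recruit PRC2, read 630 against 518 (0.28). Of 22 PRC1 genes, 20 were measured, with 7 ratios above 0 and 13 below 0. Their median was -0.12, against 0.0023 for all measured genes. It stayed between -0.12 and -0.09 under quantile normalization, median centring and loess. Cbx8, which reads the PRC2 mark, read 76.8 against 99.1 (-0.37). Pcgf2, the paralog of Bmi1, read 102 against 81.7 (0.32), and Phc2 read 368 against 299 (0.30).

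Of the deubiquitinase complex and its partners, 8 of 10 genes were measured, with a median of 0.01, and Asxl3 was under the floor on both arrays. Kdm1b, a histone demethylase, read 129 on the knockout array and 170 on the wild-type array (log2 -0.39). Foxk2, a factor that recruits Bap1, read 500 against 439 (0.19), with further probe sets from -0.21 to 0.10, and Hcfc1 read 1647 against 1472 (0.16). The H3K27 demethylases and MLL complexes, which oppose Polycomb, had 11 of 11 genes measured and a median of -0.0046. Kdm6a, an X-linked H3K27 demethylase, read 557 against 442 (0.33), but its further probe sets ran from -0.62 to 0.12. Kmt2a (830 against 744, 0.16) and Kmt2c (748 against 798, -0.09) followed.

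Of 8 genes that Polycomb complexes are known to repress, 4 were under the floor on both arrays. Cdkn2a, the Ink4a and Arf locus that Bmi1 represses in HSC, read 9.38 on the knockout array and 8.26 on the wild-type array, with both values under the floor. Ebf1, Lin28b and Igf2bp3 were likewise under it on both arrays. Cdkn2b, the neighbour of Cdkn2a, read 72.8 against 58.1 and was at least 1.20-fold higher. Pax5 read 81.2 against 60.8 (log2 0.42), with the wild-type value just above the floor, and its second probe set gave 0.08. Hmga2, a fetal HSC factor, read 136 against 179 (-0.40), and Gata6 read 72.6 against 73.0 (-0.01). Of the 4 measured, 0 reached 1.5-fold.

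**Figure D4:**
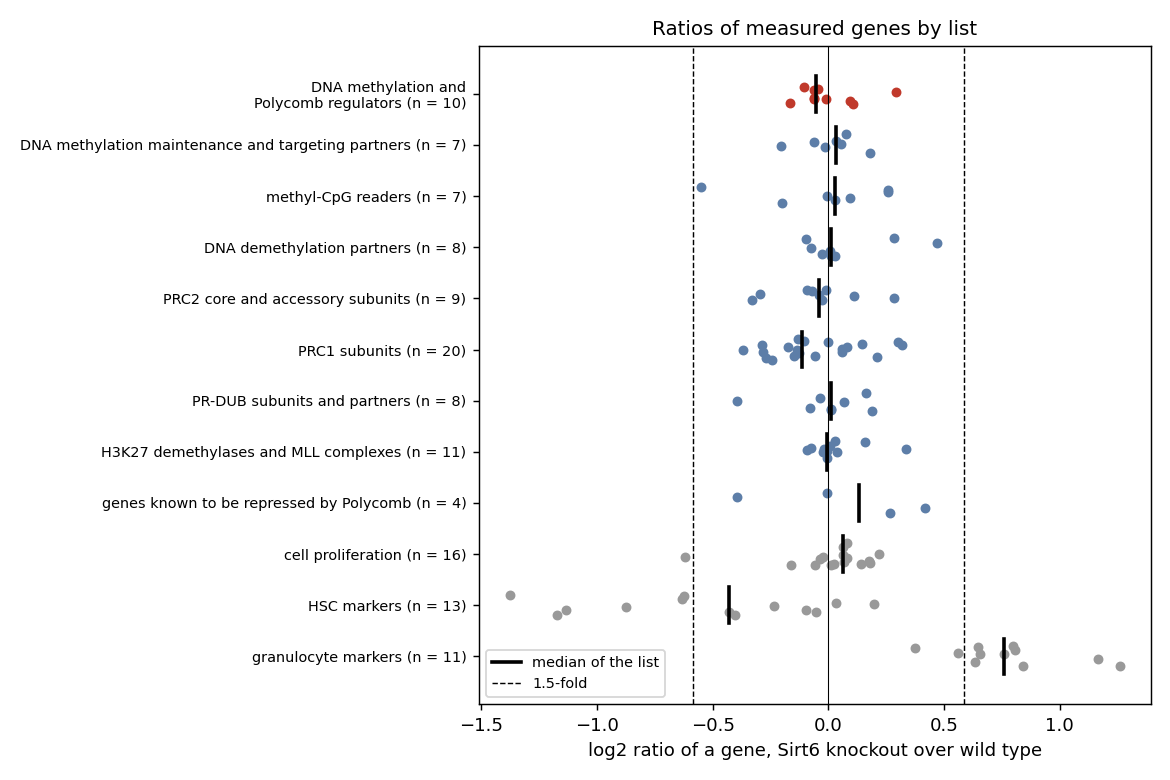
Log2 ratios of the Sirt6 knockout over the wild-type array (horizontal axis) of each measured gene (points), by list (rows, n measured), with the median of each list as a black bar and 1.5-fold as dashed lines. The 10 regulators (red) and the genes of the 8 pathway lists (blue) lie inside 1.5-fold, while 6 of 13 HSC markers and 9 of 11 granulocyte markers (grey) lie outside it.

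Markers of cell state differed between the same arrays. In bulk RNA, fewer cells of a type and less RNA per cell cannot be told apart. All 13 HSC markers with a probe set of their own were measured. Of these, 6 were at least 1.5-fold lower and 0 higher on the knockout array (median log2 -0.43), and their summed signal was 10416 against 12988 in wild type. All 11 granulocyte markers had ratios above 0 and 9 were at least 1.5-fold higher (median 0.76), with a summed signal of 36258 against 22717. Of 5 measured B cell markers 3 were at least 1.5-fold higher (summed signal of the list 1260 against 610), and of 4 measured monocyte and macrophage markers 1 was (2425 against 1349). That marker was F13a1 (1273 against 428), while Csf1r had a log2 ratio of 0.45, Ccr2 0.19 and Adgre1 -0.10. Of 5 measured endothelial and stromal markers 3 were at least 1.5-fold lower and 1 higher (619 against 1132), and Cdh5, Col1a1 and Lepr were under the floor on both arrays. Erythroid markers had 1 higher and 1 lower of 5 measured, and megakaryocyte markers 1 higher and 2 lower of 4. Among T cell markers, Cd3e, Cd3d, Cd3g and Cd4 were under the floor on both arrays, while Cd8a was above it on both (94.4 against 81.2, log2 0.22). Genes of cell proliferation, with which Dnmt1 and Ezh2 levels are known to go, had a median of 0.06 over 16 measured genes. Their summed signal was 41520 against 40865, and 1 of them passed 1.5-fold. That gene was Tyms (66.1 against 101, log2 -0.62), whose knockout value lay just above the floor. The part of these differences in the ratios of the 10 genes was not tested.

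The targeted gene did not check the labels. The single Sirt6 probe set read 174 on the knockout array and 124 on the wild-type array (log2 0.49), and the sources used here do not say whether it lies in the disrupted part of the gene. Directions above rest on the label. Y-linked genes were lower on the knockout array, with log2 ratios of -1.03 for Eif2s3y, -0.70 for Kdm5d and -0.89 for Uty, a paralog of Kdm6a. Xist, the RNA that coats the inactive X chromosome, read 5224 on the knockout array and 3365 on the wild-type array (log2 0.63), with its further probe sets from -0.83 to 1.98. Both arrays thus held signal above the floor from Xist and from these Y-linked genes. The sex of the mice is not given in the labels. A difference in the make-up by sex and the genotype therefore cannot be told apart in any ratio above, including that of the X-linked Kdm6a.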

How the data were processed

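The deposited table holds 1 linear signal intensity per probe set and array, made by the authors with MAS5 per the submitters' processing notes; RNA was extracted with Trizol per the labels' protocols. The label field names biotin, while the labelling protocol names Cy3. The sources used here give no scaling target, software version or detection calls. Median signals were 60.7 (knockout) and 60.8 (wild type), so the deposited values were analysed as log2 without rescaling. Of 45037 probe sets, 34945 named 1 gene, 932 several and 9160 none; only the first were named, with symbols updated through RefSeq (GRCm38.p6). A gene was represented by its brightest probe set. The floor was the median over probe sets of the mean log2 signal (5.92); values under it were raised to it, and a ratio against it is a lower bound, written "at least".

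With 1 array per genotype no test between genotypes was made, and the number of arrays limits the precision. Differences were counted at 1.5-fold. The 10 genes, the lists and the settings were chosen with earlier results of these data known. All 10 genes are named; of each pathway list the 3 genes with the largest ratio on both arrays, bounds of at least 1.5-fold and every gene past 1.5-fold are named, and others (such as those under the floor) were named after their values were seen. Motifs were likewise chosen after the values were seen. Alternatives were quantile normalization, median centring, loess (span 0.3), the median over probe sets, no floor, a floor at percentile 25 or 75, adding 1 floor as a pseudocount, leaving out probe sets by suffix, and a 2-fold size. The counting was tested on simulated data. Python 3.11.15, numpy 2.4.6, pandas 2.3.3, statsmodels 0.14.6 and matplotlib 3.10.9 were used.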

Additional observations from a re-analysis of the deposited data

How the results depend on the processing

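No paired analysis was possible because each genotype had 1 array. Under all 11 alternatives, 0 of the 10 regulators measured under each passed the size used, and their median stayed between -0.06 and -0.04. Quantile normalization turned Tet3 to 0.02; no other of the 10 genes changed sign under the 3 scalings. The median over probe sets turned Ezh1 to -0.03 and Asxl1 to 0.06. With the floor at percentile 75, Tet3 and Ezh1 were not measured, and without probe sets ending in _a_at, _x_at and _s_at, Dnmt1, Dnmt3b and Ezh1 were not. In that last setting 1 of 69 pathway genes passed 1.5-fold, Scmh1, since a dimmer probe set then stood for it. The Ezh1 probe set 1418290_a_at moved to -1.04 without a floor and to -0.46 with a pseudocount. The count of all measured genes past 1.5-fold was 502 of 11547 (4.35%). The floor changes how many genes are measured. With the floor at percentile 25 the count was 923 of 15481 (5.96%), and at percentile 75 it was 176 of 7220 (2.44%). With no floor it was 1679 of 18193 (9.23%). Over the same 11547 genes it was 274 (2.37%) with a pseudocount, and 112 at a size of 2-fold. Signals near the floor limit Tet3, Ezh1 and the genes repressed by Polycomb.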

Other observations

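Single probe sets passed 1.5-fold where the brightest probe set of the same gene did not. Among the 153 probe sets of the pathway lists above the floor on both arrays, 5 (3.27%) were at least 1.5-fold lower and 1 higher, against 3.74% and 1.59% of all such probe sets. Rbbp4, a histone chaperone in PRC2 and other complexes, read 408 on the knockout array and 699 on the wild-type array on 1454875_a_at (log2 -0.78), while its brightest probe set gave -0.04. Zbtb4, a reader of methylated DNA, read 71.7 against 138 on 1457293_at (-0.95), against 0.26 on its brightest. Pcgf5, a PRC1 subunit, read 315 against 475 on 1453636_at (-0.59), against 0.06, and the PRC1-associated Scmh1 read 99.5 against 154 on 1441573_at (-0.63), against -0.06. Kdm6a read 76.7 against 118 on 1445198_at (-0.62), against 0.33. The higher one was Idh1 on 1419821_s_at (303 against 198, 0.62), which pointed the same way as its brightest probe set (0.47). The sources used here do not say which transcript forms these probe sets match.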
